A study of Mus musculus with 8 samples.

Results

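Matrix metalloproteinases (MMPs), ADAMTS proteinases, the ADAMTS-like proteins and the tissue inhibitors of metalloproteinases (TIMPs) were examined in fibroadipogenic progenitors, stromal cells that lie between muscle fibres and can become fibroblasts or adipocytes. The members were the rows of the count table whose symbol is Mmp, Timp, Adamts or Adamtsl followed by a number, with Mmp1a and Mmp1b counted as such. They came to 51 of 24419 rows, made up of 23 Mmp, 4 Timp, 19 Adamts and 5 Adamtsl genes. Values are given for the 39 with at least 10 reads in 2 or more of the 8 libraries, namely 13 Mmp, 4 Timp, 17 Adamts and 5 Adamtsl genes, and these 39 were among the 13646 genes tested. A gene can pass such a minimum through the group in which it is high, so the 39 do not stand for the whole of the families.

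The progenitors were taken from hindlimb muscle of male mice of the C57BL/6J strain, whose age the labels do not give and for which they name no altered gene. In the knockdown group (3 mice) the pancreas had been injected with KPCY cells, a mouse pancreatic cancer line, that carried a lentiviral vector inhibiting miR-27a-3p. In the scrambled group (3 mice) the injected KPCY cells carried a lentiviral vector with a scrambled sequence, and the sham group (2 mice) had surgery without cells. Both lines had been selected with puromycin (2 µg/mL, 7 days), and the cells were given in 50 µL. The labels name 1 stable line per vector, so a difference between the lines that does not come from the inhibitor cannot be told apart from its effect. The inhibitor was in the tumour cells and not in the sorted progenitors, which were taken as SCA-1+ cells without CD31, CD45 or α7-integrin. The study asked what these progenitors do in a model of pancreatic cancer cachexia, the wasting of muscle and fat. The mature sequence of the inhibited microRNA is shown to identify the target of the inhibitor, from RefSeq (GRCm38.p6, chr8:84208727-84208747, plus strand), with its seed, bases 2 to 8, in capitals.
mmu-miR-27a-3p: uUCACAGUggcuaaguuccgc

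MMPs are zinc proteinases that are made as inactive precursors and cut collagens, gelatin, proteoglycans and other proteins around the cell. ADAMTS proteinases trim procollagens, cut the large proteoglycans versican and aggrecan or act on microfibrils, and the ADAMTS-like proteins resemble their ancillary part but carry no protease domain. TIMPs bind the active site of MMPs, and TIMP3 also blocks several ADAMTS proteinases. Stromal cells of muscle make much of the matrix that these enzymes act on.

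The 8 libraries held 15647436 to 28340450 counted reads, of which the members took 1.17 to 1.22% in knockdown, 1.13 to 1.58% in scrambled and 1.11 to 1.22% in sham libraries. Scrambled library 2 stood apart from its group. On the principal component that held 61.1% of the variance of all tested genes the knockdown libraries lay between -39.5 and -32.3, scrambled libraries 1, 2 and 3 at 115.5, -12.3 and 92.0, and the sham libraries at -47.7 and -42.1. In 25 of the 39 members (64.1%) scrambled library 2 was the scrambled library nearest the sham mean, as it was in 69.6% of all tested genes. Values without it are therefore given beside results on the scrambled group where the call or the size changes. The label of the cells was checked with Pdgfra, a defining marker, which was at 1449 to 1477 CPM (read counts scaled to library size, with TMM factors) in knockdown, 1519 to 1586 CPM in scrambled and 1256 and 1588 CPM in sham libraries. Ly6a, the gene of the sorted antigen SCA-1, was at 1033 to 1175 CPM in knockdown, 451, 1136 and 436 CPM in scrambled and 951 and 933 CPM in sham libraries, lowest in scrambled libraries 1 and 3. Cd34 was likewise lowest in these, at 1805 to 1925 CPM in knockdown, 213, 1179 and 241 CPM in scrambled and 2250.3 and 2156 CPM in sham libraries. Dcn, another progenitor marker, went the other way, with every scrambled value above all others. It was at 16204, 12811 and 15462 CPM in knockdown, 24984, 19625 and 21059 CPM in scrambled, and 11101 and 14630 CPM in sham libraries. The 6 progenitor markers summed to 20272.5 to 23214.5 CPM in knockdown, 23592 to 27652 CPM in scrambled, and 18623 and 22663 CPM in sham libraries. Of the antigens sorted against, Ptprc, the gene of CD45, was at most 2.51 CPM. Pecam1, the gene of CD31, was at 35.0, 46.4 and 49.0 CPM in knockdown, 73.0, 37.7 and 56.2 CPM in scrambled and 29.9 and 20.2 CPM in sham libraries, with every scrambled value above both sham values. Itga7, the gene of α7-integrin, was at 4.003, 5.75 and 7.17 CPM in knockdown, 5.96, 8.41 and 11.5 CPM in scrambled and 2.78 and 4.02 CPM in sham libraries, also above sham in every scrambled library. The summed level of 6 muscle fibre markers was 37.6 to 47.0 CPM in knockdown, 55.2 to 194 CPM in scrambled and 24.9 and 48.9 CPM in sham libraries, highest in scrambled library 3. That of 10 neutrophil markers was 2.36 to 4.82, 4.16 to 21.0 and 0.112 to 3.99 CPM in the same order of groups, highest in scrambled library 1. Endothelial markers (6 genes) summed to 475 to 555 CPM in knockdown, 354 to 407 CPM in scrambled and 493 and 508 CPM in sham libraries, lower in every scrambled library than in any other. Muscle stem cell markers (5) summed to 4.67 to 7.87, 6.62 to 15.2 and 2.91 to 4.30 CPM in the same order of groups, macrophage markers (10) to 14.01 to 52.0, 23.7 to 41.3 and 16.1 to 19.7 CPM, Schwann cell markers (5) to 58.4 to 66.7, 49.7 to 91.0 and 32.8 to 34.3 CPM, and mature adipocyte markers (5, with Lep at 0 in every library) to 1.90 to 9.66, 4.40 to 13.8 and 0.190 to 2.40 CPM, each above both sham values in every scrambled library. Over all libraries tenocyte markers (6) summed to 628 to 1269.95 CPM, pericyte and smooth muscle markers (7) to 132 to 266 and epithelial tumour markers (5) to 1.07 to 15.9 CPM, and in these the scrambled and sham values overlapped. With all libraries edgeR called no marker of these lists in scrambled against sham or in knockdown against scrambled libraries. The part of other cells in the results below was not tested, and in sorted bulk cells fewer cells of a type and less RNA per cell cannot be told apart.

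Timp2 and Mmp2 led the families in level. Per kilobase of exon, the scale used here for levels of different genes, Timp2, an inhibitor that also takes part in the activation of MMP2, averaged 914 CPM per kb in knockdown, 918 in scrambled and 904 in sham libraries. Mmp2, a gelatinase that stromal cells secrete, averaged 654, 883 and 678 CPM per kb in the same order. Timp3, the inhibitor bound to the matrix, Mmp14, the membrane-bound activator of MMP2, and Adamts1, which cuts versican, followed at 180, 172 and 118 CPM per kb over all 8 libraries. Mmp3 (84.1), Adamts2 (82.1), Adamts5 (81.2) and Mmp11 (79.9) were close to each other, and Mmp11 reached that level through the scrambled group, averaging 18.6 CPM per kb in knockdown, 183 in scrambled and 16.9 in sham libraries. At the other end 12 members averaged under 1 CPM per kb, among them Mmp9, the second gelatinase, at 0.204, and Mmp13, the main interstitial collagenase of mice, at 0.101 CPM per kb.

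**Figure D1:**
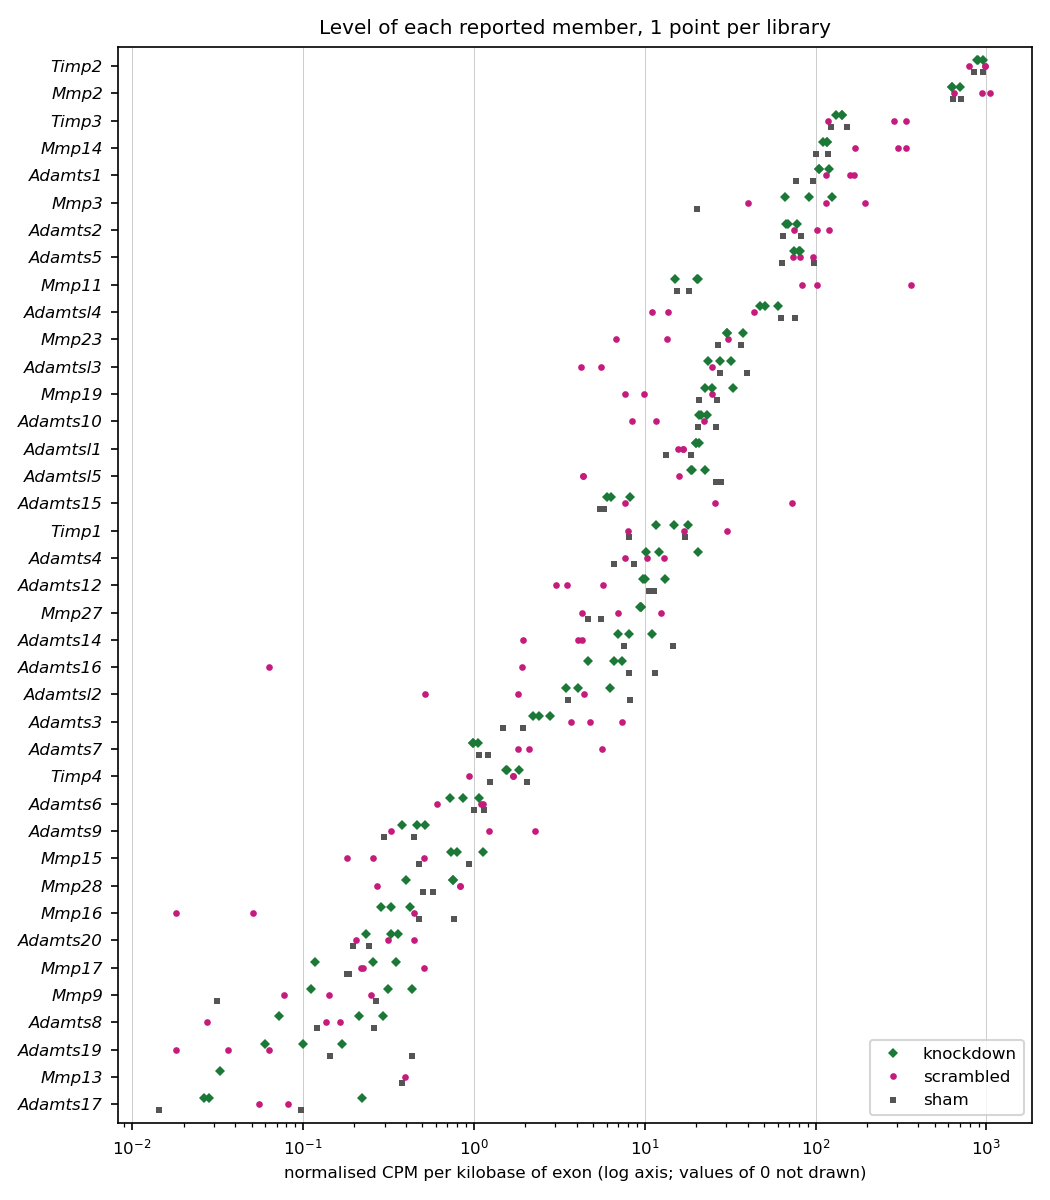
Level of each of the 39 members in normalised CPM per kilobase of exon (log axis), 1 point per library, ordered by the mean over all libraries, with knockdown, scrambled and sham libraries as diamonds, circles and squares; values of 0 are not drawn. Timp2 and Mmp2 stand above the others in every library, and the scrambled circles of Mmp11 lie above all other points of that gene.

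The 12 members below the minimum were Adamts13, Adamts18, Mmp1a, Mmp1b, Mmp7, Mmp8, Mmp10, Mmp12, Mmp20, Mmp21, Mmp24 and Mmp25. Adamts13, the proteinase of von Willebrand factor, and Mmp1a, Mmp1b, Mmp7 and Mmp21 had 0 reads in all 8 libraries, where a count of 0 allows up to 3 reads, or 0.106 CPM in the deepest and 0.192 CPM in the shallowest library, for counting error alone. The most reads of any in a library were the 20 of Mmp8, the neutrophil collagenase, in scrambled library 1, the library with the highest summed neutrophil markers.

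Summed over each family, MMP levels were higher and ADAMTS-like levels lower in every scrambled library than in any other library. The MMP sum was 924, 1036 and 898 CPM per kb in the knockdown libraries, 1608, 1163 and 1713 in the scrambled libraries, and 921 and 853 in the sham libraries. The TIMP sum was 1108, 1061 and 1039.7 CPM per kb in knockdown, 1329, 942 and 1285 in scrambled, and 993 and 1119.7 in sham libraries, and the groups overlapped. The ratio of summed TIMP to summed MMP levels was thus 1.20, 1.02 and 1.16 in knockdown, 0.826, 0.810 and 0.750 in scrambled, and 1.08 and 1.31 in sham libraries. All 3 scrambled libraries, the second included, lay below the 5 others in this ratio, which is given as a description without a test. The ADAMTS-like sum was 113, 137 and 125 CPM per kb in knockdown, 40.9, 105 and 37.1 in scrambled, and 154 and 151 in sham libraries. The ADAMTS sum was 320, 345 and 339 CPM per kb in knockdown, 478, 332 and 415 in scrambled, and 299 and 329 in sham libraries, and here scrambled library 2 fell among the knockdown values. Mmp2 gave 55.3 to 77.5% of the MMP sum and Timp2 73.9 to 86.6% of the TIMP sum over all libraries, so the ratio rests mostly on these 2 genes. In scrambled library 2 Mmp2 lay within the knockdown and sham values. The MMP sum does not stand for each member: Mmp15, Mmp16, Mmp19 and Mmp23 were below both sham values in scrambled libraries 1 and 3. Mmp11 alone gave 6.35, 7.14 and 21.3% of the MMP sum in the scrambled libraries and 1.44 to 2.28% in the others. Mmp3 also entered this sum, averaging 94.4 CPM per kb in knockdown, 116 in scrambled and 20.3 in sham libraries. Its highest value of all libraries was that of scrambled library 2.

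**Figure D2:**
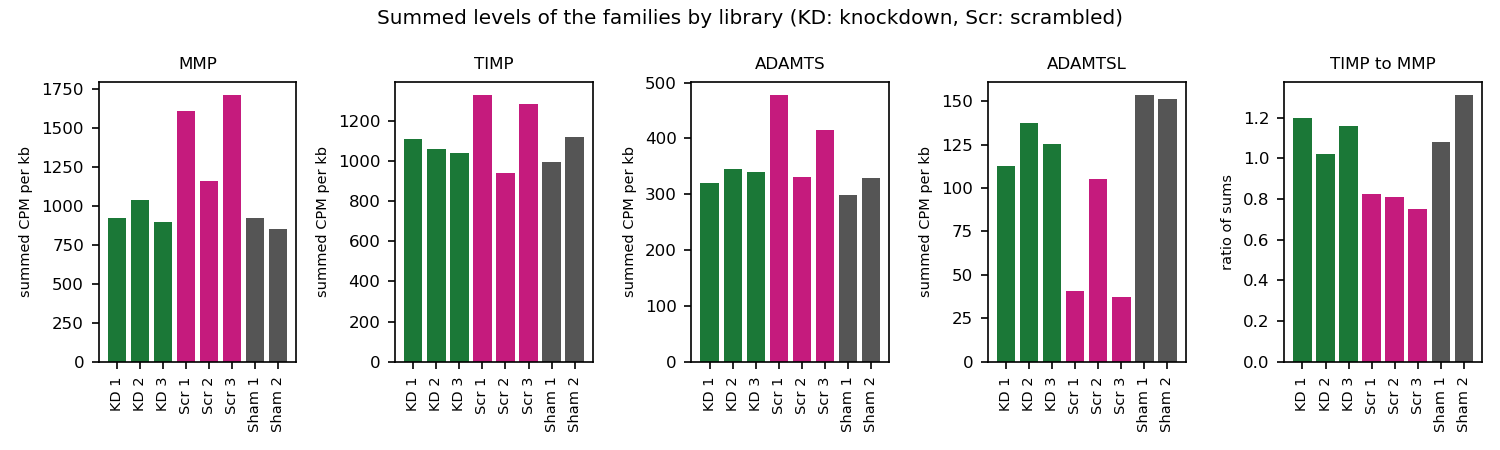
Summed level of each family in normalised CPM per kilobase of exon, and the ratio of the TIMP to the MMP sum, 1 bar per library (KD, knockdown; Scr, scrambled). The 3 scrambled bars are the highest of the MMP panel and the lowest of the ADAMTS-like and ratio panels.

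With scrambled tumours, against sham surgery, Mmp11 rose and Adamts12 fell, and no other member passed an adjusted p of 0.05 in edgeR's quasi-likelihood test with Benjamini-Hochberg adjustment. That was 1 of 39 members higher (2.56%), against 1.1% of all tested genes, and 1 of 39 lower (2.56%), against 0.476%. Without scrambled library 2, which was chosen after it was seen to stand apart, 11 of 38 members were called higher (28.9%), against 25.4% of all genes, and 13 lower (34.2%), against 25.6%. With DESeq2, 8 of the 37 members with an adjusted p were called higher (21.6%), against 9.16% of genes, and 5 lower (13.5%), against 5.18%. The scrambled and sham values did not overlap in 8 members that were higher (20.5%), against 20.2% of all genes, and in 8 that were lower (20.5%), against 20.8%. The shares without library 2 and those of groups apart were thus near the background for the higher members. The median log2 difference was 0.03 over the members and 0.00 over all genes, and the median of its size without sign was 0.84 and 0.51.

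**Figure D3:**
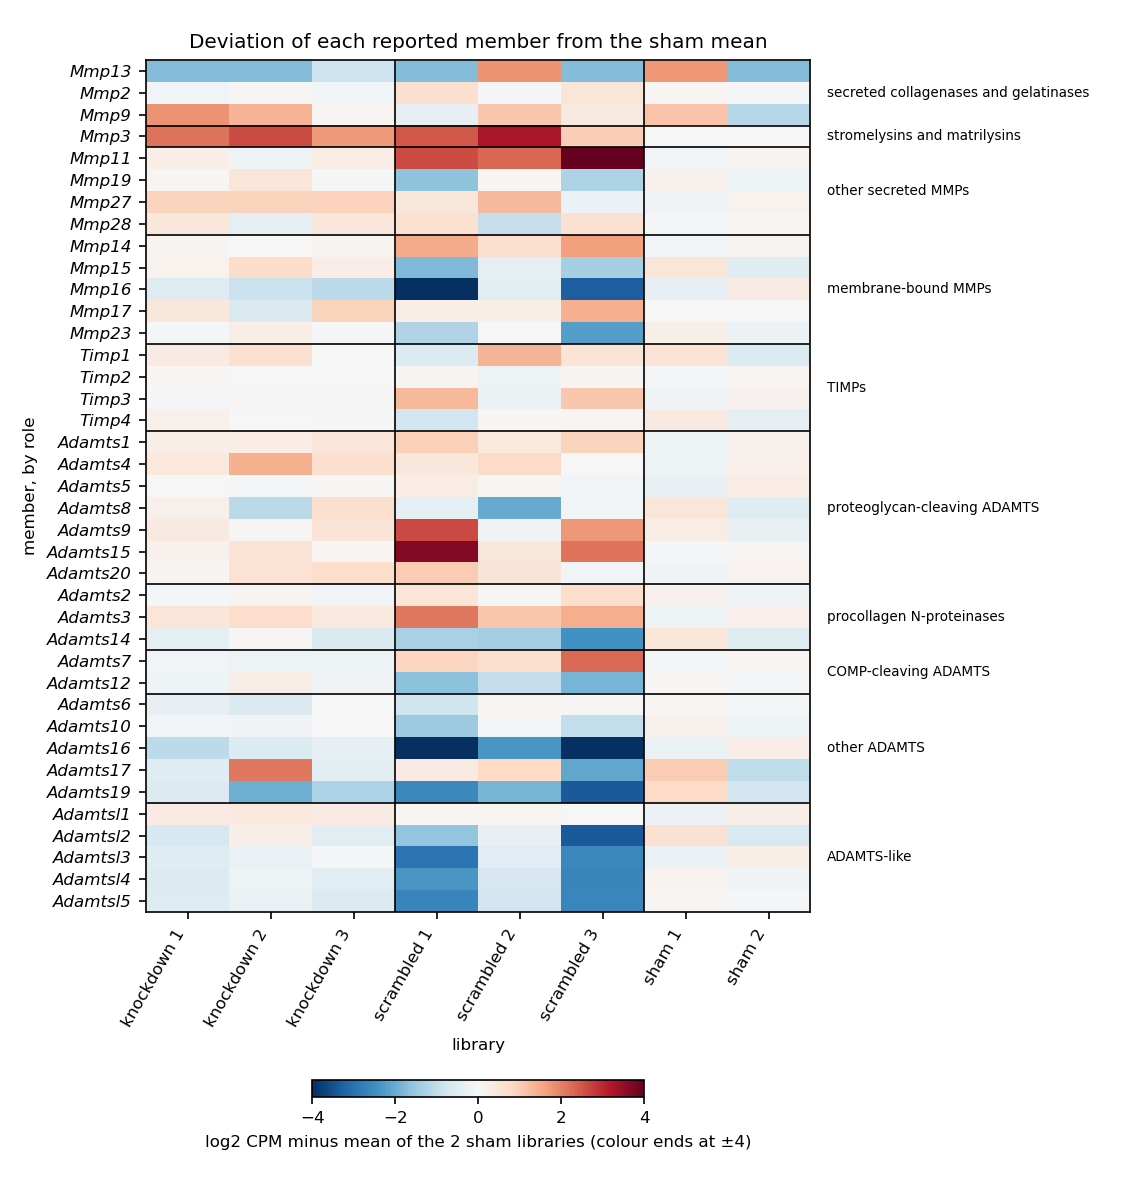
Deviation of each of the 39 members from the mean of the 2 sham libraries in log2 CPM, with libraries in columns, members grouped by role in rows and the colour scale ended at ±4. Scrambled libraries 1 and 3 carry the strongest colours in most members. Scrambled library 2 keeps the colour of its group in, among others, Mmp3, Mmp11, Mmp14, Adamts3, Adamts7, Adamts12, Adamts14, Adamts16 and Adamts19.

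Mmp11 encodes stromelysin-3, an MMP of stromal cells that furin activates inside the cell. It lies on GRCm38 chr10:75923222-75936496, minus strand, as a protein-coding gene of GENCODE M21 (ENSMUSG00000000901.17). It was at 56.6, 41.5 and 57.0 CPM in knockdown libraries 1, 2 and 3, 284, 231 and 1012 CPM in scrambled libraries 1, 2 and 3, and 43.1 and 50.7 CPM in sham libraries 1 and 2. All 3 scrambled values lay above the other 5, and scrambled library 3 was the highest by far. The scrambled mean of 509 ± 437 CPM (SD, n = 3), against 46.9 ± 5.36 CPM in sham (SD, n = 2), gave a log2 fold change of 3.44 ± 0.64 (SE), a 10.8-fold rise, with an adjusted p of 0.0415 in edgeR's quasi-likelihood test. Without scrambled library 2 it was 3.79 ± 0.64 (edgeR, adjusted p = 0.00494), and without scrambled library 3, which carried much of the mean, it was 2.46 (adjusted p = 0.0119). The Mmp11 call was lost when any of sham libraries 1 and 2, scrambled library 1 and the 3 knockdown libraries was left out, and when only the scrambled and sham libraries entered the fit, and its adjusted p ran from 1.08e-08 to 0.390 over the alternatives. Chchd10, a mitochondrial gene on the opposite strand that shares 155 exon bases with Mmp11, was at 1.59, 3.35 and 1.09 CPM in knockdown, 19.9, 5.79 and 75.5 CPM in scrambled, and 0.696 and 0.725 CPM in sham libraries. The counting strand is not given in the sources used here, so reads of the shared bases cannot be told apart.

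The 120 bases before the RefSeq start of 3 members with contrasting values are shown with the motifs found in them in capitals (GRCm38.p6). The Mmp11 stretch is chr10:75932503-75932622, minus strand, with 2 GC boxes (GGGCGG), the Mmp3 stretch is chr9:7445702-7445821, plus strand, with an AP-1 site (TGANTCA) and a TATA box (TATAAA), and the Adamts12 stretch is chr15:11064653-11064772, plus strand, with none of these. In GENCODE M21 the Mmp11 gene reaches farther upstream, so its stretch lies inside the gene as annotated there. The TATA letters of Mmp3 begin at base -7 from the RefSeq start.
Mmp11: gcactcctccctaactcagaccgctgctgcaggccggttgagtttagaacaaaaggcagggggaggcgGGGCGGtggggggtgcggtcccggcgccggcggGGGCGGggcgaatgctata
Mmp3: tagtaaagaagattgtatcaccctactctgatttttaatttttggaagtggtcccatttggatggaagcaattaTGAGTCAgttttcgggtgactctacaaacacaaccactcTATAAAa
Adamts12: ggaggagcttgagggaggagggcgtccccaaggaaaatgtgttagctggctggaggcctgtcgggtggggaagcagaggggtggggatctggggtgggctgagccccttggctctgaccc
Both strands of the 250 bases before the start were searched for the 3 motifs, which do not overlap one another in these stretches. RefSeq promoters were at hand for 36 of the 51 members, 39 promoters in all, since 3 members have 2. The AP-1 letters stood in 8 of the 39 (20.5%), against 6.73% of 32536 mouse promoters, and each of the 8 belongs to a gene of the MMP cluster on chromosome 9 (Mmp1a, Mmp1b, Mmp3, Mmp7, Mmp10, Mmp12, Mmp13 and Mmp20). TATA letters stood in 10 (25.6%, against 12.3%) and GC boxes in 20 (51.3%, against 33.0%). These are matches of letters and show no binding.

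Mmp3, stromelysin-1, a broad matrix proteinase that also activates other MMPs, was the other MMP far above sham. It lies on GRCm38 chr9:7445822-7455975, plus strand, among 10 Mmp genes between positions 7272514 and 7699585. Of the 28860 reads of that cluster over all libraries, Mmp3 held 89.9% and Mmp27 9.87%, and the 8 other genes held 81 reads together. Mmp3 stood at 165, 225 and 119 CPM in the knockdown libraries, 207, 350.3 and 72.2 CPM in the scrambled libraries, and 36.6 and 36.3 CPM in the sham libraries. Every knockdown and scrambled value lay above both sham values, and the order within the scrambled group ran against that of most members, with library 2 the highest and library 3 the lowest. The log2 difference between scrambled and sham libraries was 2.53 ± 0.58 (edgeR, adjusted p = 0.0610), and 1.95 ± 0.56 without scrambled library 2 (adjusted p = 0.0310). DESeq2 gave an adjusted p of 4.37e-05. Mmp27, its neighbour, with little known of its function, was at 20.9, 20.9 and 21.2 CPM in the knockdown libraries, 15.4, 27.7 and 9.51 CPM in the scrambled libraries, and 10.2 and 12.3 CPM in the sham libraries. The knockdown values of Mmp27 lay close together and above both sham values, while its scrambled values spread on either side of them.

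Among the membrane-bound MMPs, Mmp14 was higher and 3 others were lower in scrambled libraries 1 and 3. Mmp14, also called MT1-MMP, which cuts fibrillar collagen at the cell surface and activates MMP2, was at 695, 659 and 694 CPM in the knockdown libraries, 1813, 1010.5 and 2015 CPM in the scrambled libraries, and 600.3 and 703 CPM in the sham libraries. All scrambled values lay above all others, with library 2 nearest to them. The log2 difference between scrambled and sham libraries was 1.31 ± 0.29 (edgeR, adjusted p = 0.0589) and, without scrambled library 2, 1.56 ± 0.16 (adjusted p = 1.30e-05). Mmp16, another membrane-bound MMP, had 4, 92 and 7 reads in the scrambled libraries, against 65 and 119 reads in sham libraries, so that only library 2 was near them. Its log2 difference was -1.79 ± 0.82 (edgeR, adjusted p = 0.182), and -4.31 ± 0.62 without scrambled library 2 (adjusted p = 1.51e-04), where 4 and 7 reads remain. Mmp15 had a log2 difference of -1.13 ± 0.53 with all libraries and -1.71 ± 0.53 without scrambled library 2 (edgeR, adjusted p = 0.186 and 0.0182). Mmp23 had -0.89 ± 0.48 and -1.60 ± 0.28 (edgeR, adjusted p = 0.238 and 0.00115). Mmp17 was at 0.781 to 2.32 CPM in knockdown, 1.44 to 3.40 CPM in scrambled and 1.20 and 1.23 CPM in sham libraries, with scrambled above sham throughout but no call.

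Of the secreted gelatinases and collagenases, Mmp2 was high throughout. It was at 2118, 2372 and 2123 CPM in the knockdown libraries, 3562, 2176 and 3195 CPM in the scrambled libraries, and 2407 and 2163 CPM in the sham libraries. Scrambled libraries 1 and 3 were above all others, and scrambled library 2 lay within the knockdown and sham values. The log2 difference between scrambled and sham libraries was 0.38 ± 0.25 (edgeR, adjusted p = 0.313), and 0.57 ± 0.17 without scrambled library 2 (adjusted p = 0.0137). Mmp9 stayed between 0.112 and 1.54 CPM and Mmp13 between 0 and 1.06 CPM over all libraries, and the groups overlapped in both. Among the other secreted MMPs, Mmp19, which cuts basement membrane proteins and shares 789 exon bases with Tmem198b, was at 80.1 to 116 CPM in knockdown, 27.03, 88.1 and 35.1 CPM in scrambled, and 93.7 and 73.1 CPM in sham libraries. Only scrambled libraries 1 and 3 were low, and the log2 difference of -0.73 ± 0.44 (edgeR, adjusted p = 0.271) was -1.43 ± 0.21 without library 2 (adjusted p = 1.99e-04). Tmem198b, on the opposite strand, was at 37.1, 53.5 and 37.4 CPM in knockdown, 15.6, 38.3 and 17.5 CPM in scrambled, and 47.2 and 40.4 CPM in sham libraries. As the counting strand is not given, reads of the bases shared by Mmp19 and Tmem198b cannot be told apart. Mmp28, epilysin, lay between 1.06 and 3.21 CPM in all libraries.

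With all libraries none of the 4 TIMPs was called, by edgeR or DESeq2. Timp2 was at 3738, 3499.6 and 3442 CPM in the knockdown libraries, 3825, 3085 and 3815 CPM in the scrambled libraries, and 3314 and 3728 CPM in the sham libraries, and the groups overlapped. Its log2 difference between scrambled and sham libraries was 0.02 ± 0.21 (edgeR, adjusted p = 0.947), and its sign turned when single libraries were left out. Timp3 was at 1073, 1166 and 1166 CPM in the knockdown libraries, 2751, 958 and 2341 CPM in the scrambled libraries, and 1005 and 1250.4 CPM in the sham libraries. Scrambled libraries 1 and 3 stood above all others, and scrambled library 2 was the lowest of all 8. The log2 difference was 0.84 ± 0.39 with all libraries (edgeR, adjusted p = 0.185) and 1.18 ± 0.17 without scrambled library 2 (adjusted p = 1.98e-04). Timp3 shares 1733 exon bases with Syn3, a gene on the other strand that had at most 0.335 CPM. Timp1, the soluble inhibitor that cytokines induce in many stromal cells, was at 13.2, 15.9 and 10.4 CPM in the knockdown libraries, 7.13, 27.1 and 15.1 CPM in the scrambled libraries, and 15.2 and 7.20 CPM in the sham libraries. Its highest value was that of scrambled library 2 and its lowest that of scrambled library 1, so the scrambled group spanned the others, with a log2 difference of 0.56 ± 0.53 (edgeR, adjusted p = 0.478) that turned to -0.05 without library 2. Timp4 lay between 5.49 and 12.1 CPM in all libraries.

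**Figure D4:**
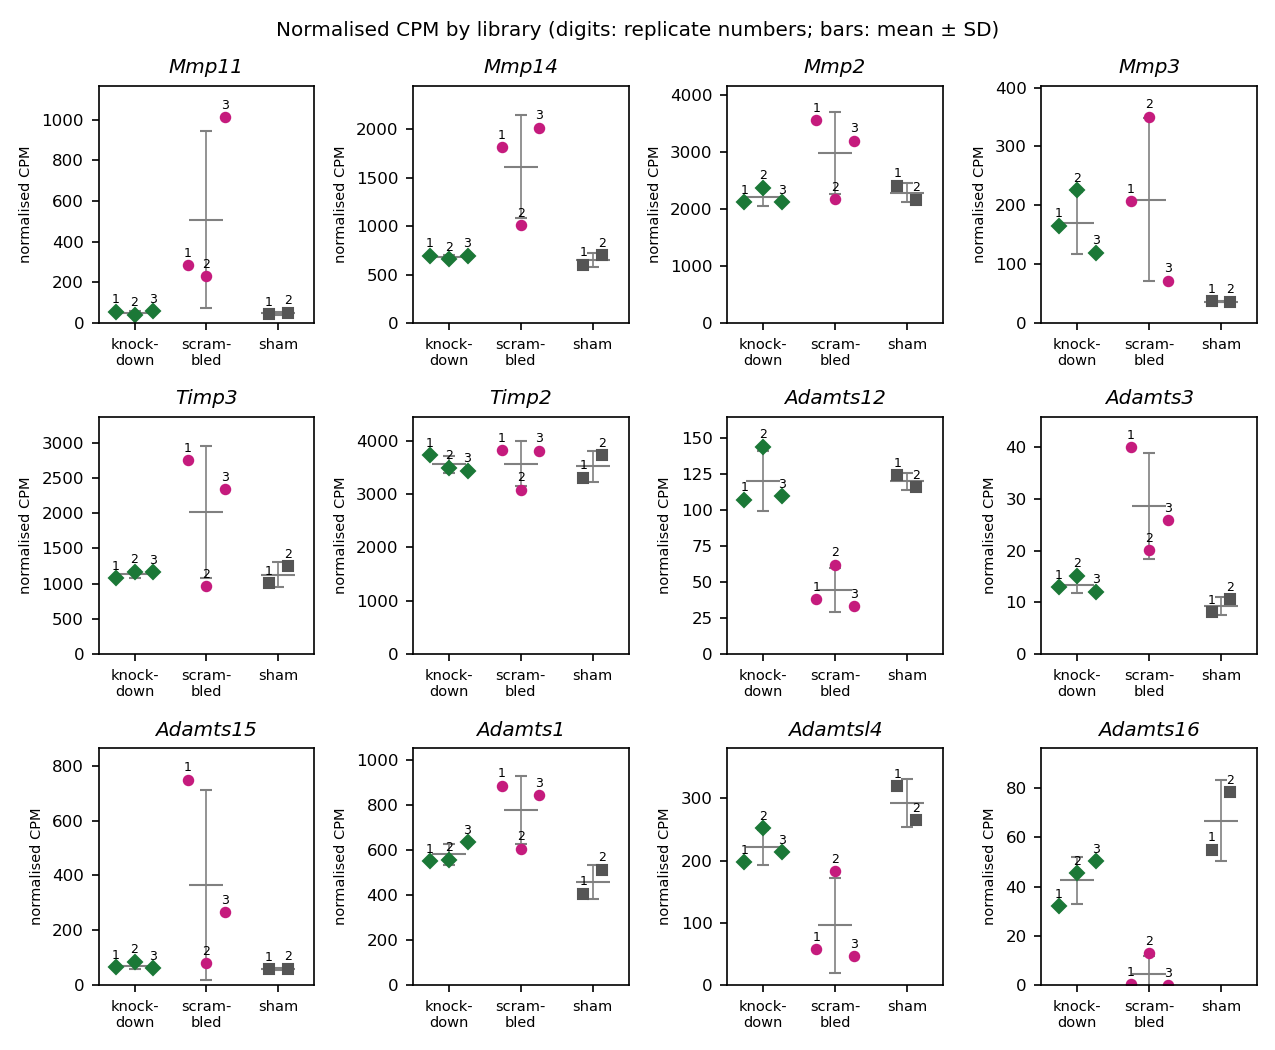
Normalised CPM of 12 members in each library (points, with the replicate number above), with the mean and SD of each group in grey; bars end at 0 where the SD passes it. Mmp11, Mmp14 and Adamts3 have all scrambled points above the others and Adamts12 has all of them below, while Timp3 and Adamts15 have scrambled library 2 beside the knockdown and sham points.

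Adamts12 and Adamts7, which both cut the cartilage matrix protein COMP, lay on opposite sides of sham. Adamts12 (GRCm38 chr15:11064790-11349231, plus strand, protein-coding, ENSMUSG00000047497.10) was at 107, 144 and 109.6 CPM in the knockdown libraries, 38.2, 62.0 and 33.0 CPM in the scrambled libraries, and 124 and 116 CPM in the sham libraries. All 3 scrambled values lay below the 5 others, library 2 included. The scrambled mean of 44.4 ± 15.5 CPM (SD, n = 3), against 119.9 ± 5.81 CPM in sham (SD, n = 2), gave a log2 fold change of -1.43 ± 0.27 (edgeR, adjusted p = 0.0419), which was -1.74 ± 0.17 without scrambled library 2 (adjusted p = 1.19e-05). The Adamts12 call was lost when any of sham libraries 1 and 2, scrambled libraries 1 and 3 and the 3 knockdown libraries was left out, and when only the scrambled and sham libraries entered the fit, with an adjusted p from 1.19e-05 to 0.344 over the alternatives. Adamts7 was at 6.67, 6.20 and 6.21 CPM in the knockdown libraries, 13.2, 11.4 and 35.1 CPM in the scrambled libraries, and 6.77 and 7.64 CPM in the sham libraries. Its scrambled values lay above all others, highest in library 3. The log2 difference was 1.44 ± 0.48 (edgeR, adjusted p = 0.110), and 1.70 ± 0.41 without scrambled library 2 (adjusted p = 0.00532).

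The procollagen N-proteinases, which remove the amino-terminal propeptide of fibrillar procollagens, did not move as a group. Adamts3 was at 12.98, 15.2 and 12.1 CPM in the knockdown libraries, 40.0, 20.1 and 25.8 CPM in the scrambled libraries, and 8.10 and 10.6 CPM in the sham libraries. Its scrambled values lay above all others, and its knockdown values above both sham values. The log2 difference between scrambled and sham libraries was 1.61 ± 0.33 (edgeR, adjusted p = 0.0502), at the edge of the threshold, and 1.83 ± 0.26 without scrambled library 2 (adjusted p = 1.48e-04). Adamts14 was on the other side, at 41.9, 57.2 and 36.3 CPM in the knockdown libraries, 22.4, 21.2 and 10.1 CPM in the scrambled libraries, and 76.5 and 39.2 CPM in the sham libraries, with all scrambled values below the others and a log2 difference of -1.68 ± 0.38 (edgeR, adjusted p = 0.0599), which was -1.77 ± 0.43 without scrambled library 2 (adjusted p = 0.0108). Adamts2, the main procollagen N-proteinase of skin, was at 648, 732 and 625 CPM in the knockdown libraries, 954, 695 and 1113 CPM in the scrambled libraries, and 763 and 605 CPM in the sham libraries. Scrambled libraries 1 and 3 were the highest and library 2 lay among the rest, with a log2 difference of 0.43 ± 0.24 (edgeR, adjusted p = 0.247), and of 0.60 ± 0.17 without library 2 (adjusted p = 0.0110).

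None of the 7 proteoglycan-cleaving ADAMTS genes was called by edgeR with all libraries. Of the 7, 3 (Adamts1, Adamts9 and Adamts15) were called higher with scrambled tumours by edgeR without scrambled library 2, against 25.4% of all genes, and by DESeq2 with all libraries, against 9.16%. Adamts1 was at 552, 558 and 635 CPM in the knockdown libraries, 887, 607 and 845 CPM in the scrambled libraries, and 406 and 513 CPM in the sham libraries. The scrambled values lay above both sham values, and so did the knockdown values, which scrambled library 2 overlapped. The log2 difference between scrambled and sham libraries was 0.76 ± 0.23 (edgeR, adjusted p = 0.0919; without scrambled library 2, 0.92 ± 0.16 and 6.53e-04). Adamts15, which cuts versican, was at 65.6, 85.3 and 62.5 CPM in the knockdown libraries, 750.2, 79.4 and 266 CPM in the scrambled libraries, and 57.1 and 60.04 CPM in the sham libraries. Scrambled library 1 held by far the highest value and library 2 was beside the knockdown values, with a log2 difference of 2.64 ± 0.76 (edgeR, adjusted p = 0.0872; without scrambled library 2, 3.13 ± 0.48 and 0.00197). Adamts9, also a versican-cutting proteinase, was at 34.4, 4.90 and 18.5 CPM in the scrambled libraries, against 6.71 and 4.46 CPM in the sham libraries, with library 2 between the sham values and a log2 difference of 1.80 ± 0.69 (edgeR, adjusted p = 0.134; without scrambled library 2, 2.29 ± 0.34 and 1.96e-04). Adamts5, the main aggrecan-cutting proteinase of mouse cartilage, was at 868, 809 and 876 CPM in the knockdown libraries, 1042, 871 and 796 CPM in the scrambled libraries, and 686 and 1057 CPM in the sham libraries. Its sham libraries were the highest and the lowest of all 8, and the log2 difference was 0.05 ± 0.23 (edgeR, adjusted p = 0.890). Adamts4, the other well-known aggrecan-cutting proteinase, was at 49.2, 98.9 and 58.2 CPM in the knockdown libraries, 49.9, 62.8 and 37.1 CPM in the scrambled libraries, and 32.0 and 41.6 CPM in the sham libraries, with scrambled values on either side of the sham value of library 2. Adamts8 and Adamts20 stayed at or under 1.356 and 4.04 CPM.

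Among the other ADAMTS genes, Adamts16 and Adamts19 lay farthest below sham in the scrambled group. Adamts16, which cuts fibronectin, had 623, 812 and 1153 reads in the knockdown libraries, 11, 308 and 0 reads in the scrambled libraries, and 870 and 1405 reads in the sham libraries. All scrambled values lay below the others, and library 2 lay between the rest of its group and the other groups. The log2 difference was -3.84 ± 1.03 (edgeR, adjusted p = 0.0796), and DESeq2 gave no adjusted p. Without library 2 it was called (edgeR, adjusted p = 5.42e-07), and no size is given there, since 11 and 0 reads remain. Adamts19 was low, with 46, 15 and 32 reads in knockdown, 13, 21 and 4 reads in scrambled, and 96 and 36 reads in sham libraries, or 2.36, 0.837 and 1.40 CPM in the knockdown libraries, 0.509, 0.888 and 0.252 CPM in the scrambled libraries, and 6.07 and 2.01 CPM in the sham libraries. Its scrambled values lay below both sham values and overlapped the knockdown values, and the log2 difference was -2.77 ± 0.68 (edgeR, adjusted p = 0.0688; DESeq2, 0.00633), and -3.24 ± 0.78 without scrambled library 2 (edgeR, adjusted p = 0.00464). Sham library 1 was the higher of its pair, and without it the difference was -1.79 (adjusted p = 0.424). Adamts10, which acts on fibrillin microfibrils, was at 172 to 191 CPM in knockdown, 69.2, 183 and 96.3 CPM in scrambled, and 215 and 169 CPM in sham libraries. Only scrambled libraries 1 and 3 were low, and the log2 difference of -0.73 ± 0.35 (edgeR, adjusted p = 0.194) was -1.22 ± 0.18 without library 2 (adjusted p = 1.96e-04). Adamts6 and Adamts17 overlapped between the groups.

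The ADAMTS-like genes, whose products bind fibrillin microfibrils or other matrix, were low in scrambled libraries 1 and 3 in 4 of 5 cases. Adamtsl4, needed for the anchoring of the lens, was at 198, 252 and 213 CPM in the knockdown libraries, 57.7, 183 and 46.1 CPM in the scrambled libraries, and 319 and 265 CPM in the sham libraries. All scrambled values lay below the others, but library 2 was close to the lowest knockdown value. The log2 difference between scrambled and sham libraries was -1.61 ± 0.49 (edgeR, adjusted p = 0.0976), and -2.48 ± 0.18 without scrambled library 2 (adjusted p = 1.24e-06). Adamtsl3 was at 182, 213 and 248 CPM in the knockdown libraries, 33.0, 193 and 42.8 CPM in the scrambled libraries, and 215 and 308 CPM in the sham libraries, with scrambled library 2 among the knockdown values and a log2 difference of -1.55 ± 0.63 (edgeR, adjusted p = 0.149; without scrambled library 2, -2.79 ± 0.22 and 2.23e-06). Adamtsl5 had 20.6, 74.6 and 20.7 CPM in the scrambled libraries, against 133 and 123 CPM in the sham libraries, and Adamtsl2 had 14.5, 35.2 and 4.16 CPM, against 65.7 and 28.5 CPM. Their log2 differences of -1.72 ± 0.49 and -1.37 ± 0.67 (edgeR, adjusted p of 0.0856 and 0.200) were -2.63 ± 0.15 and -2.23 ± 0.65 without scrambled library 2, where both were called lower (adjusted p of 4.00e-07 and 0.0297). Adamtsl1 differed from these. It was at 253, 267 and 253 CPM in the knockdown libraries, 213, 213 and 201 CPM in the scrambled libraries, and 171 and 238 CPM in the sham libraries, and the scrambled values lay between those of the sham libraries.

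Knockdown against scrambled libraries asks what differs in the progenitors with an inhibitor of miR-27a-3p in the tumour cells. Mmp11, Mmp14, Adamts3 and Adamts7 were lower and Adamts12, Adamts14 and Adamts16 higher in every knockdown library than in any scrambled library, but with all libraries edgeR called no member. edgeR's quasi-likelihood test called 0 of 39 members higher (0.00733% of all genes) and 0 lower (0.044%), with 14 of 39 members at an unadjusted p under 0.05, against 32.4% of all genes, and limma-voom called none. DESeq2 called 5 of 37 higher (Adamts12, Adamts14, Adamtsl4, Adamtsl5 and Mmp15; 13.5%, against 5.47% of genes) and 6 lower (Adamts3, Adamts7, Adamts9, Adamts15, Mmp11 and Mmp14; 16.2%, against 10.5%). Without scrambled library 2, edgeR called 13 of 38 higher (34.2%, against 27.3%) and 10 lower (26.3%, against 26.6%). The groups did not overlap in 7 members that were higher (17.9%, against 17.5% of genes) and 4 that were lower (10.3%, against 16.7%). The scrambled libraries serve in both comparisons, so the values of the 2 comparisons are not independent. The median log2 difference was 0.21 over the members and 0.01 over all genes.

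**Figure D5:**
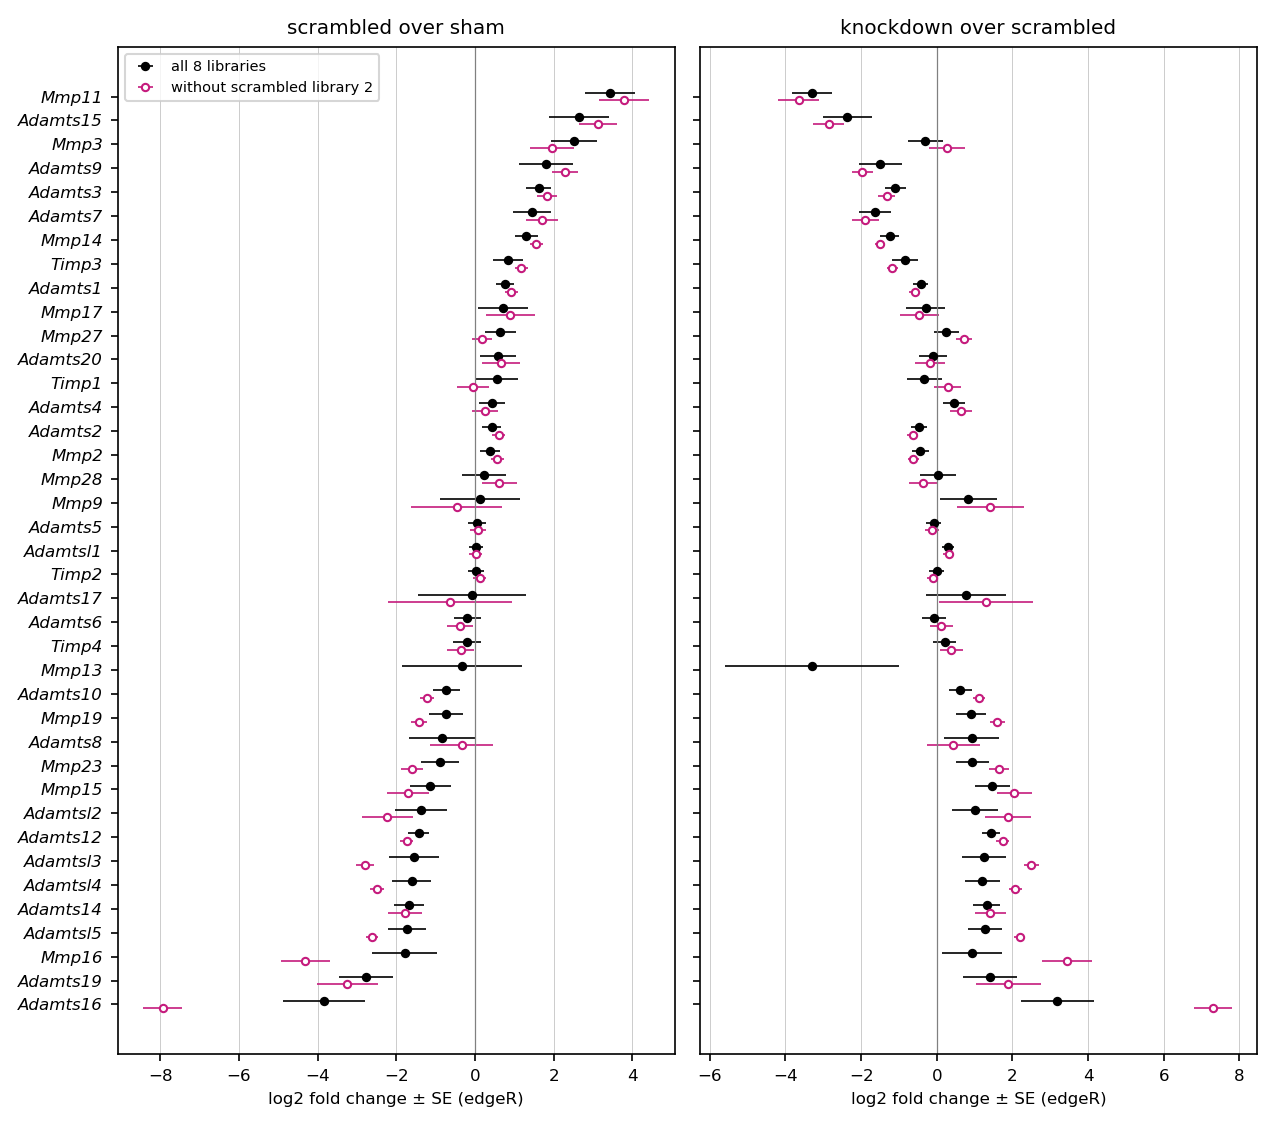
log2 fold change ± SE (edgeR) of each member for scrambled over sham (left) and knockdown over scrambled (right), with all 8 libraries (filled) and without scrambled library 2 (open), ordered by the left panel. Without that library most points lie farther from 0 and their bars are shorter; Mmp13 has no value there, and both panels share the scrambled libraries.

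Mmp11 had the smallest p of the members, with a mean of 51.7 ± 8.81 CPM in knockdown and 509 ± 437 CPM in scrambled libraries (SD, n = 3 each). The log2 difference was -3.30 ± 0.53 (edgeR, adjusted p = 0.0610), and -3.65 ± 0.54 without scrambled library 2 (adjusted p = 0.00268), and -2.32 without scrambled library 3 (adjusted p = 0.0402). Adamts12 had a log2 difference of 1.43 ± 0.25 (edgeR, adjusted p = 0.0610; without scrambled library 2, 1.74 ± 0.16 and 6.96e-06). For Mmp14 it was -1.24 ± 0.26 (adjusted p = 0.0684; -1.49 ± 0.14 and 6.43e-06). Adamts3 and Adamts7 had -1.10 ± 0.27 and -1.63 ± 0.42 (edgeR, adjusted p = 0.0727 for either), and -1.32 ± 0.21 and -1.89 ± 0.36 without scrambled library 2 (adjusted p of 3.39e-04 and 0.00123). In each of these 5 every knockdown library lay on 1 side of every scrambled library. Adamts14, Adamts16, Mmp15, Adamtsl4 and Adamtsl5 also had knockdown values above all scrambled values, with log2 differences of 1.32 ± 0.35, 3.19 ± 0.97, 1.47 ± 0.46, 1.21 ± 0.45 and 1.29 ± 0.45 (edgeR, adjusted p of 0.0732, 0.0851, 0.0883, 0.116 and 0.102). Without scrambled library 2 all 5 were called (edgeR, adjusted p of 0.0200, 8.33e-07, 0.00296, 2.59e-06 and 6.76e-07), and the differences of Adamts14, Mmp15, Adamtsl4 and Adamtsl5 were 1.42 ± 0.41, 2.04 ± 0.46, 2.08 ± 0.17 and 2.19 ± 0.15. For Adamts16, with 11 and 0 scrambled reads left, no size is given. Adamtsl1 was higher as well without overlap, by 0.30 ± 0.16 (edgeR, adjusted p = 0.212), with little spread in either group. Timp3 and Mmp2 overlapped through scrambled library 2, with log2 differences of -0.83 ± 0.34 and -0.43 ± 0.22 (edgeR, adjusted p of 0.136 and 0.200), which were -1.17 ± 0.15 and -0.62 ± 0.15 without it (adjusted p of 7.99e-05 and 0.00445). Of the members that overlapped with all libraries, Adamts1, Adamts2, Adamts9 and Adamts15 were also called lower without it, and Adamts10, Adamtsl2, Adamtsl3, Mmp16, Mmp19, Mmp23 and Mmp27 higher (edgeR, adjusted p from 3.02e-06 to 0.0413). Mmp3 was the exception among the members far from sham. Its knockdown mean of 170.0 ± 53.0 CPM was within the spread of the scrambled mean of 209.7 ± 139 CPM (SD, n = 3 each), and the log2 difference was -0.31 ± 0.47 (edgeR, adjusted p = 0.653), of the opposite sign (0.26) without scrambled library 2.

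Between knockdown and sham libraries Mmp3 stood out, called higher by DESeq2 and not by edgeR. edgeR's quasi-likelihood test called 0 of 39 higher (0.00733% of all genes) and 0 lower (0% of all genes), and also none without scrambled library 2 (0.17% of all genes higher and 0.0664% lower), with 4 members (Adamts4, Adamts19, Mmp3 and Mmp27) at an unadjusted p under 0.05, against 2.37% of all genes. DESeq2 called Mmp3 alone, 1 of 34 higher (2.94%, against 0.201% of genes) and 0 lower (0.00805%). The groups did not overlap in 7 members that were higher (17.9%, against 13.8% of genes) and 5 that were lower (12.8%, against 13.5%), near the background. Mmp3 averaged 170.0 ± 53.0 CPM in knockdown (SD, n = 3) and 36.5 ± 0.214 CPM in sham libraries (SD, n = 2), 4.66-fold higher, with a log2 difference of 2.22 ± 0.58 (edgeR, adjusted p = 1; DESeq2, 0.00806). Mmp27 averaged 21.0 ± 0.154 and 11.3 ± 1.47 CPM, with a log2 difference of 0.89 ± 0.39 (edgeR, adjusted p = 1). Both were called when only the knockdown and sham libraries entered the fit, which called 73 of all genes higher. Adamts4, at 68.8 ± 26.5 CPM in knockdown and 36.8 ± 6.80 CPM in sham libraries, had a log2 difference of 0.90 ± 0.34, and Adamts19 one of -1.37 ± 0.60 (edgeR, adjusted p = 1 for both). Of the members that edgeR called between scrambled and sham libraries, Mmp11 differed here by 0.14 ± 0.56 and Adamts12 by 0.00 ± 0.27 on the log2 scale. Mmp14, not called there with all libraries, differed by 0.07 ± 0.28. These errors leave room for differences in either direction. A p above the threshold does not show that knockdown and sham libraries are alike.

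Partner genes of the families were counted from lists chosen with earlier results of these data known. Of 16 tested MMP activators and cell-surface regulators, 1 rose and 1 fell in scrambled against sham libraries (edgeR; 1.1% and 0.476% of all genes), and without scrambled library 2 the counts were 6 and 5 (25.4% and 25.6% of all genes). DESeq2 with all libraries called 3 higher and 2 lower, against 9.16% and 5.18% of genes. Sdc4, a cell-surface proteoglycan, was at 125, 118 and 111 CPM in the knockdown libraries, 494, 173 and 340.2 CPM in the scrambled libraries, and 85.1 and 85.8 CPM in the sham libraries, a log2 fold change of 1.97 ± 0.38 (edgeR, adjusted p = 0.0441), and of 2.30 without scrambled library 2. All scrambled values lay above the rest. Papln, papilin, a matrix protein related to the ancillary part of ADAMTS enzymes, was at 15.6, 15.4 and 14.1 CPM in the knockdown libraries, 7.44, 7.02 and 5.73 CPM in the scrambled libraries, and 13.8 and 16.5 CPM in the sham libraries, a log2 fold change of -1.16 ± 0.23 (edgeR, adjusted p = 0.0466). Here scrambled library 2 was as low as its group, and the change without it was -1.17. Pcsk6, a proprotein convertase that can activate metalloproteinase precursors, was at 1244, 1193 and 1444 CPM in the knockdown libraries, 319, 1105 and 327 CPM in the scrambled libraries, and 1855 and 1743 CPM in the sham libraries. All its scrambled values lay below the rest, farthest in libraries 1 and 3, with library 2 close to the lowest knockdown value. Its log2 difference was -1.62 ± 0.48 with all libraries (edgeR, adjusted p = 0.0932) and -2.47 without scrambled library 2 (adjusted p = 7.68e-07). Furin, which activates MMP11 and MMP14, was at 118, 107 and 116 CPM in the knockdown libraries, 204, 134 and 213 CPM in the scrambled libraries, and 135 and 123 CPM in the sham libraries, highest in scrambled libraries 1 and 3, with a log2 difference of 0.51 ± 0.22 (edgeR, adjusted p = 0.161) that was 0.70 without scrambled library 2 (adjusted p = 0.00101).

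Of 12 tested other metzincins, such as the ADAM proteinases and Bmp1, the procollagen C-proteinase, 0 were called in scrambled against sham libraries (edgeR; 3 at an unadjusted p under 0.05, against 29.2% of all genes), and 0 higher and 9 lower without scrambled library 2, against 25.4% and 25.6% of all genes (DESeq2 with all libraries, 0 and 2, against 9.16% and 5.18%). Of 12 tested substrates and helpers, 0 rose and 1 fell (edgeR; 1.1% and 0.476% of all genes), and without scrambled library 2 the counts were 1 and 8, against 25.4% and 25.6%. DESeq2 with all libraries called 1 higher and 3 lower, against 9.16% and 5.18%. The 1 called higher by edgeR without scrambled library 2 was Dcn, decorin, with all scrambled values above the others. Its log2 difference was 0.77 ± 0.27 (edgeR, adjusted p = 0.121), and 0.85 without scrambled library 2 (adjusted p = 0.00888). Fbn1, fibrillin-1, the microfibril protein that ADAMTS10 and the ADAMTS-like proteins bind, was at 4531, 5321 and 5195 CPM in the knockdown libraries, 802, 2534 and 869.7 CPM in the scrambled libraries, and 7159.6 and 6760.0 CPM in the sham libraries. All scrambled values lay below the others, and the log2 fold change was -2.31 ± 0.46 (edgeR, adjusted p = 0.0466), and -3.05 without scrambled library 2. Vcan, versican, a proteoglycan that several of the proteoglycan-cleaving ADAMTS proteinases act on, was at 456, 552 and 496 CPM in the knockdown libraries, 152, 315 and 146 CPM in the scrambled libraries, and 620.3 and 548 CPM in the sham libraries. All its scrambled values also lay below the others, at a log2 difference of -1.51 ± 0.32 (edgeR, adjusted p = 0.0539, and 2.23e-06 without scrambled library 2). Col3a1, a fibrillar procollagen, was at 13717, 19386 and 14230.2 CPM in the knockdown libraries, 990.1, 10123 and 974 CPM in the scrambled libraries, and 22477 and 13185 CPM in the sham libraries. All its scrambled values lay below the others, by far the lowest in libraries 1 and 3. The log2 difference was -2.15 ± 0.90 (edgeR, adjusted p = 0.156), and -4.18 without library 2 (adjusted p = 1.30e-06). In knockdown against scrambled libraries edgeR called 0 genes of the 3 lists with all libraries (10, 5 and 7 at an unadjusted p under 0.05, in the order of the lists, against 32.4% of all genes). Without scrambled library 2 it called 6 higher and 6 lower, 8 and 0, and 8 and 1, against 27.3% and 26.6% of all genes. DESeq2 called 3 and 5, 3 and 0, and 4 and 1, against 5.47% and 10.5%. In knockdown against sham libraries edgeR and DESeq2 called 0 in each list (1, 1 and 0 at an unadjusted p under 0.05 with edgeR).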

How the data were processed

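RNA was sequenced from sorted progenitors of 8 mice as paired reads of 59 bases from stranded mRNA libraries, per the labels' protocols. The authors deposited a raw count of reads for each of 24419 gene symbols and each library, and 6786 symbols were at 0 throughout. Per the submitters' processing notes reads were handled with bcl2fastq 2.20, STAR, Bowtie, R 4.2.1 and DESeq2 1.36.0 on build mm10, with no roles named. How reads were counted, on which annotation and whether by strand is not given in the sources used here. Gene positions and exon lengths came from GENCODE M21 (GRCm38, the same build as mm10).

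The counts were tested with edgeR 4.0.16 under R 4.3.3. Low genes were removed by filterByExpr (minimum count 10, total 15), libraries were scaled by TMM, and a robust quasi-likelihood fit of 3 group means over all 8 libraries gave two-sided tests, adjusted by Benjamini and Hochberg over the 13646 genes tested, with a threshold of 0.05. The groups share 1 estimate of the spread, since sham has 2 libraries. The libraries are labelled biological replicates, and p-values measure the spread between them. Errors of CPM are SDs, and those of log2 fold changes are standard errors derived from the F statistic. Low values rest on few reads, and intervals for counting error would cover reads and not molecules. Alternatives were RLE scaling, no low-count filter, DESeq2 1.42.0, limma-voom (limma 3.58.1), edgeR's legacy fit, only the groups compared, a replicate block, and leaving out each library.

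The members, the lists of roles, partner genes and markers, and the tests were chosen with earlier results of these data known. Values in every library are given for members called in any comparison, the 4 with the smallest p in each comparison and the 3 with the highest level per kilobase in each family, and other members are named where a call appears without scrambled library 2 or with DESeq2 or to complete a role group.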

Additional observations from a re-analysis of the deposited data

How the results depend on the processing

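The counts of called members depended on the test. For scrambled against sham libraries the members called higher were 1 as reported, 2 with no low-count filter (Adamts3 added), 8 with DESeq2, and 0 with edgeR's legacy fit, with only the scrambled and sham libraries and with the replicate block. Those called lower were 1 as reported, 5 with DESeq2 and 0 under the same 3 settings. Of all genes, 150 were called higher and 65 lower as reported, 188 and 95 with no low-count filter, and 1261 and 713 with DESeq2. The legacy fit called 106 and 27 of all genes. The fit of scrambled and sham libraries alone called 4 and 0, and the replicate block 14 and 2. For knockdown against scrambled libraries DESeq2 called 5 members higher and 6 lower, against 0 and 0 as reported. Of all genes it called 753 and 1440, against 1 and 6. For knockdown against sham libraries DESeq2 called 1 higher (Mmp3) and the fit of these groups alone 2 (Mmp3 and Mmp27), against 0. Of all genes, DESeq2 called 25 higher and 1 lower there, and the fit of these groups alone 73 and 28, against 1 and 0 as reported. RLE scaling and limma-voom changed no count of members. Leaving out single libraries gave 0 to 11 members higher and 0 to 13 lower for scrambled against sham, and 0 to 13 higher and 0 to 10 lower for knockdown against scrambled, each maximum without scrambled library 2. Without that library 3441 of all genes were called higher and 3467 lower for scrambled against sham. For knockdown against scrambled it was 3705 and 3608. The cause was not tested.

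The sign of the log2 difference turned for Timp2, Adamts5, Adamtsl1, Timp1, Mmp27 and Mmp3 under some settings. Without the filter the log2 difference of Timp2 was -0.0041 for scrambled against sham and 0.0039 for knockdown against scrambled. Leaving out single libraries gave, for scrambled against sham, -0.23 to 0.39 for Adamts5, -0.19 to 0.28 for Adamtsl1, -0.053 to 1.19 for Timp1 and -0.062 to 0.12 for Timp2. For knockdown against scrambled it gave -0.17 to 0.028 for Adamts5, -0.040 to 0.71 for Mmp27, -0.72 to 0.26 for Mmp3, -0.70 to 0.29 for Timp1 and -0.11 to 0.043 for Timp2. The settings were run for 40 log2 differences of the 18 members named by rule, 18 in each comparison with scrambled libraries and 4 between knockdown and sham libraries. Of their values, 525 kept direction and side of the threshold, 38 were newly called, 19 lost a call and 18 turned.

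The replicate numbers of the labels did not pair the libraries: of 7 same-numbered pairs across groups, with correlations of deviations from -0.0643 to 0.172, 1 was over 0.1. With the replicate block, 0 members were called in any comparison, and of all genes 14 were called higher and 2 lower, all in scrambled against sham libraries. Members with few reads, such as Mmp9, Mmp13, Adamts17 and Adamts19, have wide errors, and differences in them may not be detectable at this depth.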
